A study of Homo sapiens with 18 samples.

Results

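The response to shERK5-5, a short hairpin RNA against the kinase ERK5, was compared between 2 human neuroblastoma cell lines, CHLA-90 and SK-N-BE(2). For each probe of an expression array, the line difference was the change in CHLA-90 (shERK5-5 minus shNSC) minus the same change in SK-N-BE(2), on the log2 scale. A positive line difference means that the change was higher in CHLA-90. All 21448 probes on the array were members, so no measured value was used to choose them, and 17709 of them had 1 gene symbol.

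The 4 groups were CHLA-90 with shERK5-5, CHLA-90 with shNSC, SK-N-BE(2) with shERK5-5 and SK-N-BE(2) with shNSC, each with 3 arrays, which makes 12 of the 18 arrays of the study. Both lines are established neuroblastoma lines: the MYCN oncogene is amplified in SK-N-BE(2), and CHLA-90 lacks that amplification. Hairpins were delivered by pLKO lentivirus made in HEK-293T cells, a packaging line, and total RNA was taken 72 hours later. shNSC is the control hairpin, every group received virus, and the other 6 arrays carried a different hairpin against ERK5, shERK5-4, in the same lines. The series text calls the replicates biological triplicates, no array stands for more than 1 line or hairpin, and the labels give no culture batch.

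ERK5 is a mitogen-activated protein kinase encoded by MAPK7. Its upstream kinase MEK5 (MAP2K5) activates it, and it acts on transcription factors that include the MEF2 family. Several of the gene groups below belong to the integrated stress response, in which the transcription factor ATF4 raises genes of amino acid transport, amino acid synthesis and tRNA charging, and to the unfolded protein response, which raises chaperones of the endoplasmic reticulum (ER).

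Signals were compared within each line, because the array medians lay at 6.35 to 6.43 in CHLA-90 and at 5.63 to 5.69 in SK-N-BE(2). Levels of the 2 lines are printed side by side below, and no test was made between them. The 3 CHLA-90 shERK5-5 arrays correlated with each other at 0.988 to 0.992 across probes, and the arrays of the other 3 groups at 0.994 to 0.996. All 10 measured sympathetic neuroblast markers lay above the array median in CHLA-90 and 9 of 10 did in SK-N-BE(2), and 4 and 5 of 5 fibroblast markers and 8 and 10 of 12 markers of the mesenchymal neuroblastoma state did. For other cell types it was 0 of 4 Schwann and 0 of 5 endothelial markers in both lines, 1 of 5 epithelial markers in both, and 0 and 1 of 5 blood markers. In bulk RNA, fewer cells of a kind and less RNA per cell cannot be told apart.

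The targeted gene was lower with shERK5-5 in both lines. MAPK7 had 7.24, 7.83 and 7.22 on the CHLA-90 shERK5-5 arrays against 8.37, 8.24 and 8.64 with shNSC, and 6.14, 6.02 and 6.28 on the SK-N-BE(2) shERK5-5 arrays against 6.99, 6.46 and 6.90 with shNSC. The groups did not overlap in either line. MAPK7 fell by 0.99 in CHLA-90 (adjusted p = 0.00139) and by 0.64 in SK-N-BE(2) (adjusted p = 0.0319), each with a standard error of 0.19 (limma, Benjamini-Hochberg over all probes). The line difference of MAPK7 was -0.35 ± 0.28 (SE, 95% interval -0.92 to 0.22, adjusted p = 0.527), so a difference of either sign lies inside the interval.

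The line difference passed an adjusted p of 0.05 in limma at 1156 probes, 5.39% of the 21448 tested. It was higher in CHLA-90 at 515 probes (2.4%) and lower at 641 (2.99%). These calls covered 928 named genes (355 higher, 573 lower) and 225 probes without a symbol. The smallest called difference was 0.72 and the median size of a called one was 1.2, while 899 reached 1 and 59 reached 2 on the log2 scale. The median line difference over all probes was 0.04. Within CHLA-90, 5.85% of the probes rose and 6.84% fell with shERK5-5. Within SK-N-BE(2), 6.76% rose and 6.07% fell. The 2 responses rest on separate arrays, and across all probes they correlated at 0.372, a description across probes that are not independent.

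Most called line differences came from a change that passed the test in 1 line. Among the 1156 probes, 419 (36.2%) changed in CHLA-90 and did not pass in SK-N-BE(2), with median sizes of 0.97 in CHLA-90 and 0.29 in SK-N-BE(2). Another 504 (43.6%) changed in SK-N-BE(2) and did not pass in CHLA-90, with median sizes of 0.27 in CHLA-90 and 1.03 in SK-N-BE(2). Opposite changes that each passed the test were found at 72 probes (6.23%), of which 53 rose in CHLA-90 and fell in SK-N-BE(2) and 19 did the reverse. At 80 probes (6.92%) both lines changed in the same direction by unequal amounts, with the larger change in CHLA-90 at 14 and in SK-N-BE(2) at 66. The remaining 81 (7.01%) passed in neither line alone. A low mean signal in the other line was uncommon among the probes that passed in 1 line. The mean was taken over all arrays of the line, both ERK5 hairpins included, so it is not a starting signal. Of the 419, 49 (11.7%) had an SK-N-BE(2) mean in the lowest 25% of that line's probes. Of the 504, 31 (6.15%) had a CHLA-90 mean in the lowest 25% of that line's.

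**Figure D1:**
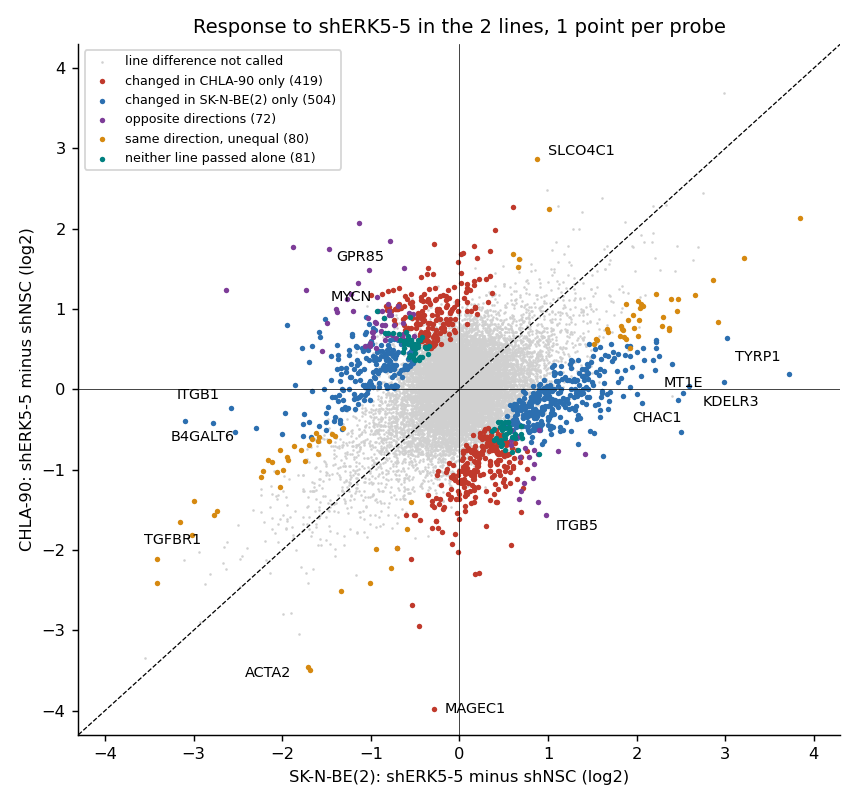
Each point is 1 probe, with the log2 change under shERK5-5 in SK-N-BE(2) on the x axis and in CHLA-90 on the y axis. Coloured points are the 1156 probes whose line difference passed the test, split by which line changed, and the dashed line marks equal changes. MAGEC1 lies low on the y axis near 0 on the x axis, and TYRP1, KDELR3, CHAC1 and MT1E lie far right near 0 on the y axis.

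The most negative line differences belonged to genes that fell in CHLA-90 or rose in SK-N-BE(2). MAGEC1, a cancer-testis antigen encoded on the X chromosome, had 6.40, 7.10 and 7.16 on the CHLA-90 shERK5-5 arrays against 10.85, 10.90 and 10.86 with shNSC. In SK-N-BE(2), where its signal was low throughout, it had 3.74, 3.59 and 3.61 with shERK5-5 against 3.81, 4.10 and 3.90 with shNSC. MAGEC1 fell 15.8-fold in CHLA-90, and its line difference was -3.69 ± 0.25 (adjusted p = 2.29e-08). TYRP1, a melanocyte enzyme of pigment synthesis, showed the other arrangement. It had 4.75, 4.08 and 4.53 on the CHLA-90 shERK5-5 arrays against 3.99, 4.22 and 4.57 with shNSC, and 9.14, 9.34 and 9.04 on the SK-N-BE(2) shERK5-5 arrays against 5.48, 5.18 and 5.69 with shNSC. The CHLA-90 groups overlapped and the SK-N-BE(2) groups lay apart, with a 13.2-fold rise and a line difference of -3.53 ± 0.31 (adjusted p = 9.88e-07).

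Further genes rose in SK-N-BE(2) with no called change in CHLA-90. CAPN6, a calpain family member without protease activity that binds microtubules, had 4.28, 4.52 and 4.68 with shERK5-5 against 5.02, 4.83 and 5.21 with shNSC in CHLA-90, and 11.12, 11.19 and 11.52 against 8.64, 8.63 and 9.07 in SK-N-BE(2). KDELR3, a receptor that returns escaped proteins to the ER, had 5.96, 6.09 and 6.12 with shERK5-5 against 5.45, 6.49 and 5.96 with shNSC in CHLA-90, and 11.50, 11.79 and 11.57 against 8.66, 8.58 and 8.66 in SK-N-BE(2). Both genes rose in SK-N-BE(2), by 2.50 and 2.99 on the log2 scale. PYCR1, the enzyme of the last step of proline synthesis, rose by 1.62 in SK-N-BE(2) and had a line difference of -2.45 ± 0.45 (adjusted p = 0.00223). The line difference was -3.02 ± 0.25 for CAPN6 (adjusted p = 3.84e-07) and -2.90 ± 0.37 for KDELR3 (adjusted p = 8.12e-05).

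Other genes at this end fell in CHLA-90 with no called change in SK-N-BE(2). IFI6, an interferon-induced gene, had 8.50, 8.11 and 8.40 on the CHLA-90 shERK5-5 arrays against 10.76, 10.42 and 10.66 with shNSC, and 7.78, 7.94 and 8.11 against 7.79, 7.49 and 7.89 in SK-N-BE(2). HAND1, a transcription factor of sympathetic neurons, had 8.57, 10.07 and 10.12 against 11.83, 11.12 and 11.62 in CHLA-90, and 12.43, 12.58 and 12.71 against 12.07, 11.79 and 12.11 in SK-N-BE(2). Both fell in every CHLA-90 shERK5-5 array relative to every shNSC array, and the first HAND1 array lay well below the other two. The line difference was -2.50 ± 0.24 for IFI6 (adjusted p = 3.22e-06) and -2.52 ± 0.41 for HAND1 (adjusted p = 0.000799). FILIP1L, a protein related to the filamin-binding FILIP1, fell by 2.95 in CHLA-90 and had a line difference of -2.49 ± 0.45 (adjusted p = 0.00202).

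At the positive end, 7 of the 12 genes named fell in SK-N-BE(2) without a called change in CHLA-90. B4GALT6, which makes the glycolipid lactosylceramide, had 7.68, 7.13 and 8.11 with shERK5-5 against 8.04, 8.18 and 7.87 with shNSC in CHLA-90, and 8.48, 8.20 and 8.23 against 11.24, 11.61 and 11.37 in SK-N-BE(2). ITGB1, the integrin beta subunit shared by many matrix receptors, had 15.50, 15.61 and 15.24 against 15.69, 15.71 and 15.63 in CHLA-90, and 12.36, 12.44 and 12.46 against 14.90, 15.07 and 15.03 in SK-N-BE(2). ITGB1 was bright in both lines, and its groups lay far apart in SK-N-BE(2). CDK6, a kinase that D-type cyclins activate in G1 phase, had 11.24, 11.23 and 11.32 against 11.58, 11.90 and 11.89 in CHLA-90, and 9.54, 9.65 and 9.95 against 12.26, 12.33 and 12.15 in SK-N-BE(2). The line difference was 2.71 ± 0.28 for B4GALT6 (adjusted p = 7.13e-06), 2.35 ± 0.23 for ITGB1 (adjusted p = 3.22e-06) and 2.01 ± 0.25 for CDK6 (adjusted p = 7.26e-05). ANKRD1, a YAP-responsive ankyrin repeat gene, fell by 2.78 in SK-N-BE(2) (3.15, 3.03 and 3.31 with shERK5-5 against 3.75, 3.53 and 3.48 with shNSC in CHLA-90, and 4.86, 4.38 and 4.25 against 7.11, 7.26 and 7.47 in SK-N-BE(2)). Its CHLA-90 signal was low with both hairpins. SEMA3A, a secreted repellent of growing axons, fell by 1.70 in SK-N-BE(2), and GYG2, a glycogen primer whose CHLA-90 signal was in the lowest 25% of that line, and IL4R, the interleukin 4 receptor chain, fell there by 1.86 and 1.45. PTPRK, a receptor tyrosine phosphatase, was the one gene of the 12 that rose in CHLA-90 (by 1.51) without a called change in SK-N-BE(2).

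**Figure D2:**
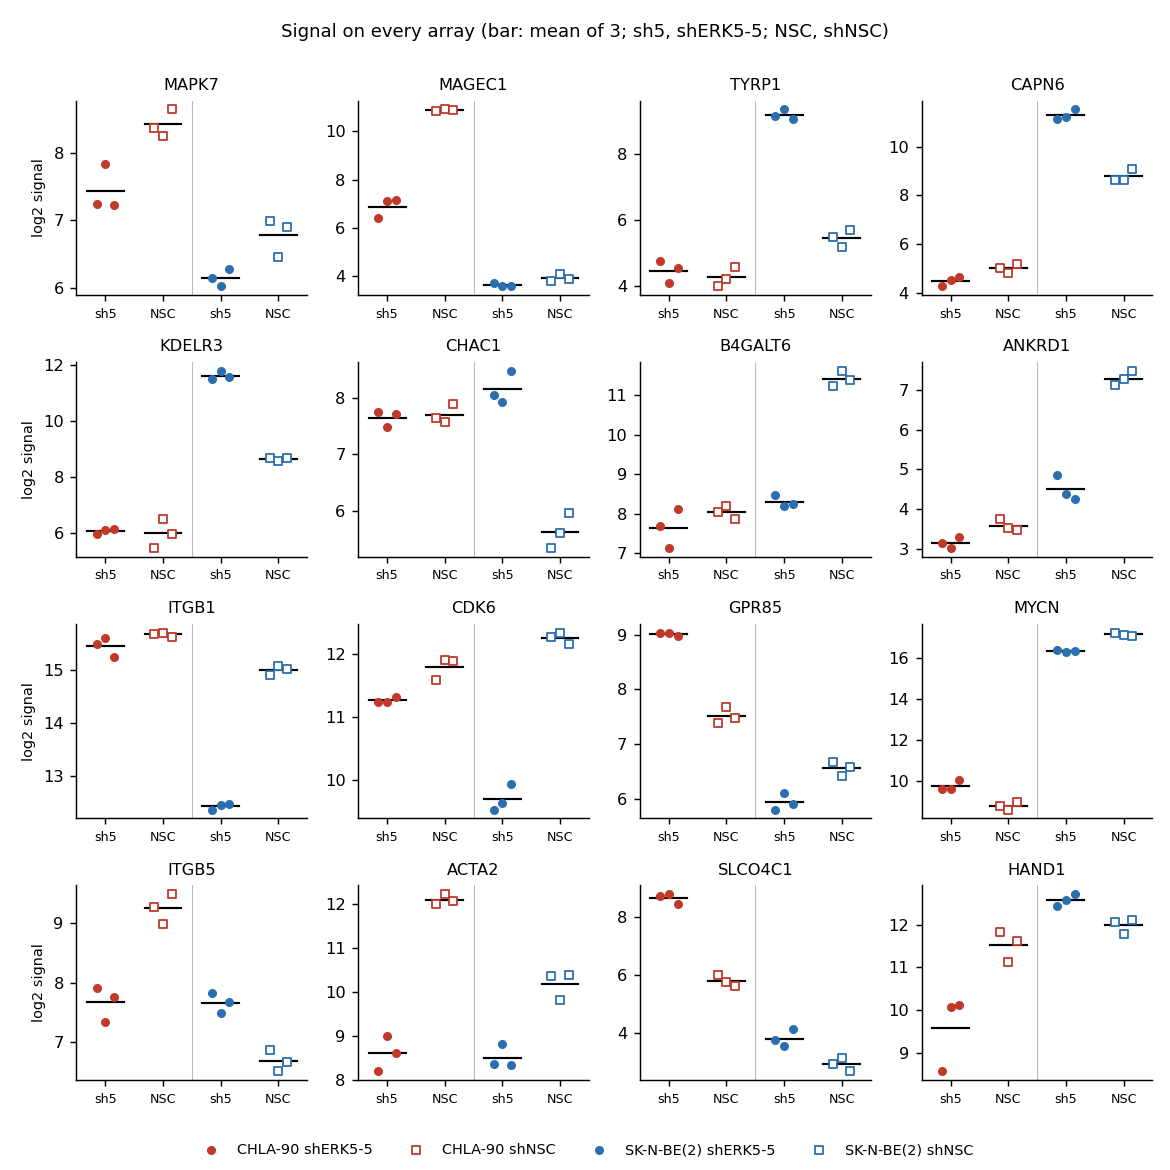
Each panel shows the log2 signal (y axis) of 1 gene on the 12 arrays, with CHLA-90 in red left of the grey line and SK-N-BE(2) in blue right of it. Filled circles are shERK5-5, open squares are shNSC and bars are means of 3. MAPK7 was lower with shERK5-5 in both lines, MAGEC1 and HAND1 fell in CHLA-90 and did not pass in SK-N-BE(2), and B4GALT6, ANKRD1, ITGB1 and CDK6 moved mainly in SK-N-BE(2).

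Among the 72 probes with opposite changes was MYCN itself. MYCN had 9.62, 9.63 and 10.06 with shERK5-5 against 8.78, 8.63 and 8.99 with shNSC in CHLA-90, and 16.36, 16.29 and 16.34 against 17.22, 17.12 and 17.06 in SK-N-BE(2), where the gene is amplified. It rose by 0.97 in CHLA-90 and fell by 0.80 in SK-N-BE(2), with no overlap between groups in either line (line difference 1.77 ± 0.24, adjusted p = 0.000163). GPR85, an orphan receptor of the brain, had 9.03, 9.04 and 8.98 against 7.38, 7.67 and 7.47 in CHLA-90, and 5.80, 6.10 and 5.90 against 6.67, 6.42 and 6.58 in SK-N-BE(2). Its line difference was 2.13 ± 0.23 (adjusted p = 1.03e-05). The potassium channel gene KCNH8 rose by 0.97 in CHLA-90 and fell by 0.92 in SK-N-BE(2). PGAP1, which remodels the GPI anchors of membrane proteins, rose by 0.48 in CHLA-90 and fell by 1.55 in SK-N-BE(2). The other 4 genes named for a rise in CHLA-90 and a fall in SK-N-BE(2) were SGIP1, NAIP, CCNG2 and GARNL3, with line differences of 1.68 to 1.77.

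In the reverse orientation, ITGB5 fell in CHLA-90 and rose in SK-N-BE(2). ITGB5, the integrin beta subunit that pairs with alpha v, had 7.91, 7.35 and 7.76 with shERK5-5 against 9.27, 8.98 and 9.48 with shNSC in CHLA-90, and 7.82, 7.50 and 7.68 against 6.87, 6.52 and 6.67 in SK-N-BE(2). The line difference was -2.55 ± 0.28 (adjusted p = 9.21e-06), opposite in sign to that of ITGB1. JAGN1, an ER protein of the early secretory pathway, fell by 1.40 in CHLA-90 and rose by 0.89 in SK-N-BE(2). PLCE1, a phospholipase C that Ras proteins bind, fell by 0.80 in CHLA-90 and rose by 1.42 in SK-N-BE(2). FEV, a transcription factor known from serotonin neurons, fell by 1.10 and rose by 0.83. GSTT2, a glutathione transferase gene annotated as a transcribed pseudogene, the zinc finger gene ZNF394, the clathrin adaptor GGA1 and AGTRAP, a binding partner of an angiotensin receptor, completed the 8 named, with line differences of -1.98 to -1.77.

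Where both lines moved together, the amounts could still differ. ACTA2, smooth muscle actin, averaged 8.61 ± 0.41 with shERK5-5 against 12.10 ± 0.12 with shNSC in CHLA-90, and 8.51 ± 0.26 against 10.20 ± 0.32 in SK-N-BE(2) (mean ± SD, n = 3 each). It fell by 3.49 in CHLA-90 and by 1.69 in SK-N-BE(2), with a line difference of -1.80 ± 0.28 (adjusted p = 0.000611). NEFL, a neurofilament subunit, fell by 3.45 in CHLA-90 and by 1.71 in SK-N-BE(2) (adjusted p = 0.0109 for the difference). TGFBR1, the type I receptor for TGF-beta, fell by 1.65 in CHLA-90 and by 3.15 in SK-N-BE(2), and the acyltransferase gene LPGAT1 fell by 1.39 and by 2.99. Of the genes that rose in both lines, the transporter gene SLCO4C1 rose by 2.87 in CHLA-90 and 0.88 in SK-N-BE(2), where its shNSC signal was in the lowest 25% of that line. MFAP4, a microfibril protein, rose by 2.13 and 3.84, SPTSSB, a subunit of serine palmitoyltransferase, by 0.84 and 2.92, and GUCY1B1, a subunit of soluble guanylate cyclase, by 0.74 and 2.36.

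Genes of the stress responses had mostly negative line differences, with changes higher in SK-N-BE(2) than in CHLA-90. Lists outside these responses had negative medians too, among them p53 targets (-0.46), cytosolic ribosomal proteins (-0.40), lysosome and autophagy (-0.37) and hypoxia and glycolysis (-0.37). Some other lists had medians above 0, such as the semaphorin list (0.19) and MAPK output and feedback (0.15). Of 30 measured genes of the ATF4 and amino acid response, 6 had a lower line difference and 0 a higher one, against 2.99% and 2.4% of all probes. Their median line difference was -0.51, beside 0.04 over all probes, with medians of -0.07 in CHLA-90 and 0.54 in SK-N-BE(2). In CHLA-90, 5 of the 30 rose and 1 fell, against 5.85% and 6.84% of all probes. In SK-N-BE(2) 14 rose and 0 fell, against 6.76% and 6.07%. CHAC1, a glutathione-degrading enzyme that ATF4 and CHOP induce, had 7.75, 7.48 and 7.71 with shERK5-5 against 7.63, 7.56 and 7.89 with shNSC in CHLA-90, and 8.05, 7.92 and 8.47 against 5.34, 5.60 and 5.95 in SK-N-BE(2). The CHLA-90 groups overlapped and the SK-N-BE(2) groups lay apart (line difference -2.56 ± 0.30, adjusted p = 2.98e-05). SLC7A5, the light chain of a transporter of large neutral amino acids, rose by 1.68 in SK-N-BE(2), and SLC3A2, its heavy chain, by 0.87. PHGDH, the first enzyme of serine synthesis, rose there by 1.00, DDIT3, which encodes CHOP, by 0.52, and ATF4 by 0.54, and none of these 5 passed in CHLA-90. SLC3A2 and PHGDH were named after their values were seen, to complete the 6. Of these calls, that of ATF4 was lost in 7 of the 12 fits that left out 1 array, that of SLC7A5 in 6 and that of DDIT3 in 3, and the count of 6 ranged from 1 (without SK-N-BE(2) shNSC replicate 2) to 6.

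Some genes of the list rose in both lines. They are given here, like the other genes below without a called line difference, after their values were seen. ASNS, asparagine synthetase, rose by 0.83 in CHLA-90 and by 1.44 in SK-N-BE(2), and its line difference of -0.61 did not pass (adjusted p = 0.175). SLC6A9, a glycine transporter, rose by 0.94 in CHLA-90 and 1.08 in SK-N-BE(2), and CEBPG, a partner of ATF4 on DNA, by 0.66 and 0.93.

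Of 14 aminoacyl-tRNA synthetases, the enzymes that charge tRNAs, 3 had a lower line difference and 0 a higher one. The shares of all probes were 2.99% and 2.4%, and the median of the 14 was -0.56. In CHLA-90 0 of 14 rose and 0 fell, against 5.85% and 6.84% of all probes, so few calls would be looked for among 14 genes. In SK-N-BE(2) 4 rose and 0 fell, against 6.76% and 6.07%. YARS1 (tyrosine), GARS1 (glycine) and AARS1 (alanine) had line differences of -1.32, -0.83 and -0.79, and SARS1 (serine) rose by 0.85 in SK-N-BE(2) without a called line difference. The calls of GARS1 and AARS1 were each lost under quantile normalization and in 6 and 10 of the 12 fits that left out 1 array, while that of YARS1 was kept in all 12.

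Of 21 genes of ER chaperones and the unfolded protein response, 6 had a lower line difference and 0 a higher one. The shares of all probes were 2.99% and 2.4%, and the median of the list was -0.58. In CHLA-90 0 rose and 5 fell, against 5.85% and 6.84% of all probes, with a median of -0.31. In SK-N-BE(2) 5 rose and 2 fell, against 6.76% and 6.07%, with a median of 0.30. HERPUD1, a component of ER-associated degradation, had 10.01, 11.08 and 11.10 with shERK5-5 against 10.73, 10.83 and 11.22 with shNSC in CHLA-90, and 11.25, 11.24 and 11.54 against 9.89, 9.88 and 9.67 in SK-N-BE(2). XBP1, a transcription factor of the unfolded protein response, had 9.84, 10.24 and 9.85 against 10.19, 10.27 and 9.99 in CHLA-90, and 11.48, 11.92 and 11.66 against 10.27, 10.75 and 10.35 in SK-N-BE(2). Both rose in SK-N-BE(2) and overlapped their controls in CHLA-90, with line differences of -1.73 ± 0.34 (adjusted p = 0.00397) and -1.40 ± 0.26 (adjusted p = 0.00223). MANF, a secreted ER stress factor, rose by 0.63 in SK-N-BE(2). The translocon subunit SEC61B, the chaperone HYOU1 and the co-chaperone DNAJC3 fell in CHLA-90, by 1.04, 0.69 and 0.57, and did not pass in SK-N-BE(2). MANF and DNAJC3 were named after their values were seen, to complete the 6. EDEM1 and DNAJB9 fell in both lines, EDEM1 by 1.09 in CHLA-90 and 1.10 in SK-N-BE(2) and DNAJB9 by 0.79 and 1.09.

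**Figure D3:**
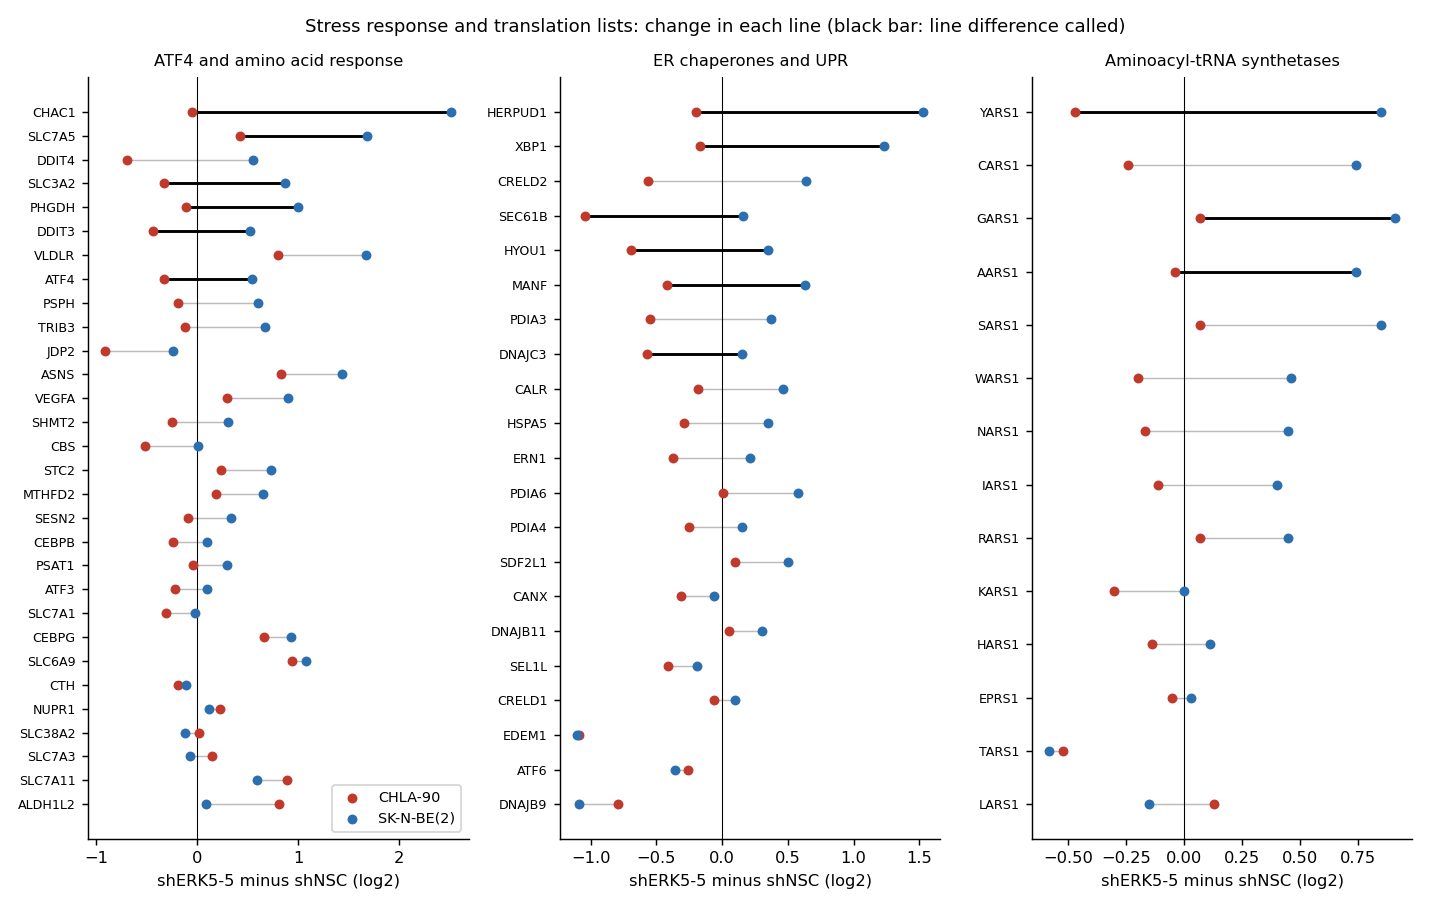
Each row is 1 gene of a list, with its log2 change under shERK5-5 in CHLA-90 (red) and in SK-N-BE(2) (blue), sorted by line difference. Black bars mark line differences that passed the test, 6 of 30, 6 of 21 and 3 of 14, and the blue point lies right of the red one in most rows.

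Probe brightness moved with these medians. When the probes were cut into 10 equal bins by mean signal, the median line difference was 0.10 to 0.14 in the 4 dimmest bins and -0.13 to -0.08 in the 4 brightest. In CHLA-90 the medians of the same bins were 0.08 to 0.12 and -0.07 to -0.03, and in SK-N-BE(2) -0.03 to -0.01 and 0.03 to 0.05. The part of this shift in the list medians was not tested. After cyclic loess normalization, which leaves bin medians of -0.05 to 0.02, the medians were -0.49 for the ATF4 list, -0.53 for the ER list and -0.47 for the synthetases, with 5, 5 and 1 lower calls. After quantile normalization they were -0.47, -0.53 and -0.47, with 2, 5 and 1 lower calls.

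**Figure D4:**
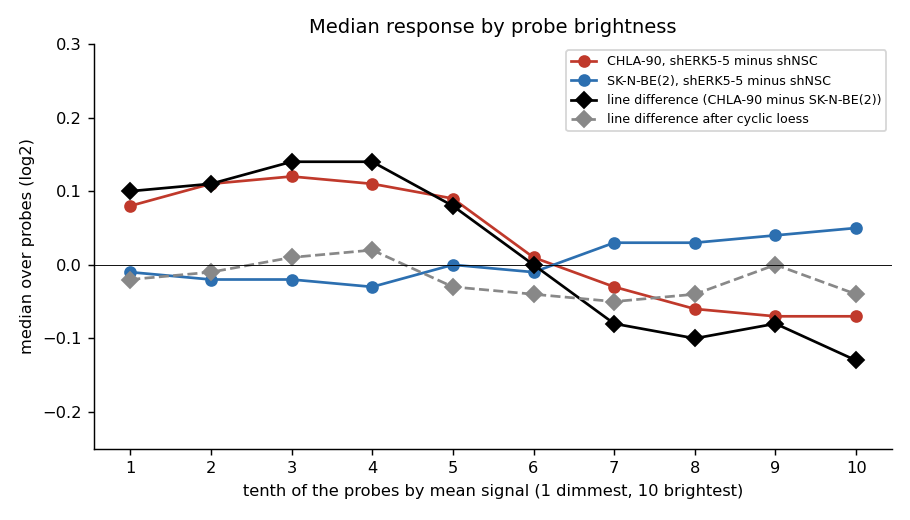
Median log2 change over the probes of each of 10 bins of mean signal (x axis, dimmest to brightest), for CHLA-90, SK-N-BE(2) and their difference as deposited, and for the difference after cyclic loess normalization (dashed). The line difference drifts from 0.10 in the dimmest bin to -0.13 in the brightest, and lies between -0.05 and 0.02 after cyclic loess.

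Promoter sequences of genes with called line differences are shown because 3 short motifs are known from these responses. They are the 250 bases before the gene start in RefSeq, build GRCh38.p14, written 5′ to 3′ on the gene's own strand, and the motif is in capitals. The ATF4-CEBP element was searched as TGATGNAA on both strands, and 3.19% of 27305 promoter windows held it. The ER stress response element was searched as CCAAT and CCACG with 9 bases between them, on both strands, and 0.0806% of windows held it. Of the 30 ATF4 list genes 23 had a promoter in the table and 3 held TGATGNAA, and of the 6 with a called line difference CHAC1 did. Of 12 synthetase promoters 2 held it, among them AARS1. Of 20 promoters of the ER list 5 held the ER stress response element, and of the 6 called genes XBP1 did. A match describes the letters and shows no binding.
CHAC1, chr15:40953221-40953470, plus strand, and AARS1, chr16:70289507-70289756, minus strand, with the match to TGATGNAA (reverse strand) in capitals, and XBP1, chr22:28800570-28800819, minus strand, with the ER stress response element in capitals:
CHAC1: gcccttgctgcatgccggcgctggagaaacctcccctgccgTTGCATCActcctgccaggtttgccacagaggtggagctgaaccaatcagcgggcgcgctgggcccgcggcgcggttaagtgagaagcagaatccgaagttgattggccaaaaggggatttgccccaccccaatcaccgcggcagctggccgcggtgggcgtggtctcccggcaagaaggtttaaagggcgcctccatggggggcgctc
AARS1: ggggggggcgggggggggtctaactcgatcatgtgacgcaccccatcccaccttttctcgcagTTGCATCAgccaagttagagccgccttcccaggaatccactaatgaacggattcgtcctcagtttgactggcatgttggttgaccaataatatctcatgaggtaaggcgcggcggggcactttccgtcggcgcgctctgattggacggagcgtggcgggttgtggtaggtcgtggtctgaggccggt
XBP1: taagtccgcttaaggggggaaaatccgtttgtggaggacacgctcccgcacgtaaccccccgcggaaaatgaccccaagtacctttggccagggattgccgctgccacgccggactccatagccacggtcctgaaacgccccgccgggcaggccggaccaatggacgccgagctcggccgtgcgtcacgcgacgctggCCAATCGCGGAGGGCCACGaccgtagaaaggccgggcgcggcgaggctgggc

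Metallothioneins are small cysteine-rich proteins that bind zinc and copper. Their genes of the MT1 and MT2 groups rose together in SK-N-BE(2) and did not pass the test in CHLA-90. The family was singled out after its values were seen, and its members share sequence, so their probes are not independent measurements. The 10 genes taken were those with MT1 or MT2 names, except MT1HL1, which was left out by name. Other metallothionein genes were not looked at. All 10 lie on chromosome 16. In CHLA-90 0 of 10 passed, with changes of -0.20 to 0.42, against 5.85% of all probes that rose and 6.84% that fell. In SK-N-BE(2) 10 of 10 rose, by 0.61 to 2.59, against 6.76% of all probes. The line difference passed for 8 of 10, against 5.39% of all probes, and MT1M and MT1IP were the exceptions. MT1E had 11.12, 10.99 and 11.16 with shERK5-5 against 11.29, 11.26 and 11.12 with shNSC in CHLA-90, and 7.95, 8.55 and 7.97 against 5.68, 5.68 and 5.71 in SK-N-BE(2). MT2A had 14.44, 14.71 and 14.53 against 14.13, 14.08 and 14.20 in CHLA-90, and 11.94, 11.27 and 11.95 against 9.64, 9.87 and 9.90 in SK-N-BE(2). MT1X had 13.46, 13.20 and 13.46 against 13.38, 13.39 and 13.25 in CHLA-90, and 11.92, 11.86 and 12.13 against 10.07, 9.97 and 10.08 in SK-N-BE(2). In all 3 genes the SK-N-BE(2) groups lay apart. The line difference was -2.60 ± 0.28 for MT1E (adjusted p = 9.21e-06), -1.90 ± 0.31 for MT1X (adjusted p = 0.000863) and -1.49 ± 0.29 for MT2A (adjusted p = 0.00329).

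**Figure D5:**
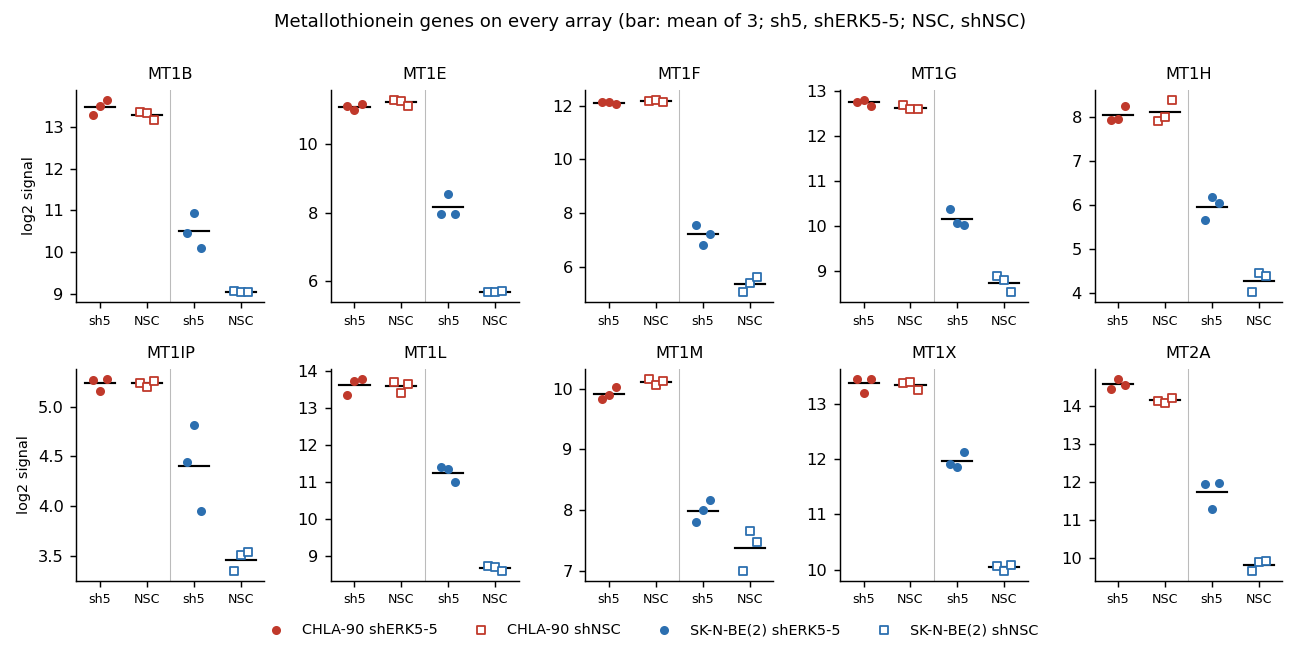
Log2 signal (y axis) of the 10 metallothionein genes on the 12 arrays, CHLA-90 in red and SK-N-BE(2) in blue, shERK5-5 as filled circles and shNSC as open squares, with bars for means of 3. In SK-N-BE(2) the shERK5-5 means lie above the shNSC means in all 10 panels, by 0.61 to 2.59, and in CHLA-90 the means differ by -0.20 to 0.42.

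With shERK5-4 the metallothionein values ran lower than with shNSC. In CHLA-90 their changes were -3.25 to -0.71 and in SK-N-BE(2) -0.98 to -0.11, and the shERK5-4 line difference passed for 7 of 10. The line differences of the 2 hairpins use the same 6 shNSC arrays and are therefore given side by side only. The metal response element, searched on both strands as TGCACNC or TGCGCNC, was in 24.7% of promoter windows. Of the 10 metallothionein genes taken, 4 had a promoter in the table, MT2A, MT1B, MT1H and MT1X, and all 4 held it. MT2A (chr16:56608334-56608583) and MT1X (chr16:56682220-56682469), both on the plus strand, are printed with 7 and 4 matches in capitals.
MT2A: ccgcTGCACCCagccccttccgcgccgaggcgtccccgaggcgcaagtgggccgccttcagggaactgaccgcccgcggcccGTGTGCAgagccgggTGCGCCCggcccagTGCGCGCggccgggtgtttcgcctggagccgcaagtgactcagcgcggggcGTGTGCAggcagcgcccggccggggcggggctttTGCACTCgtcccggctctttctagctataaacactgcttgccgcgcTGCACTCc
MT1X: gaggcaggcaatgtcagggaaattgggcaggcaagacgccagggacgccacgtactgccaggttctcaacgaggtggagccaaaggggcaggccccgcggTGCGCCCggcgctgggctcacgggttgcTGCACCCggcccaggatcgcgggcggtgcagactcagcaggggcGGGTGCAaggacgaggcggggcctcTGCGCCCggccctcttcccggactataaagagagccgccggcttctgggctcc

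Adrenergic genes, which mark the sympathetic identity of neuroblastoma cells, included 4 lower line differences and 0 higher ones among 20 measured, against 2.99% and 2.4% of all probes, with a median of -0.37. In CHLA-90 6 fell and 1 rose, against 6.84% and 5.85%, and in SK-N-BE(2) 2 fell and 1 rose, against 6.07% and 6.76%. DLK1, a Notch-related ligand of chromaffin precursors, had 9.10, 8.66 and 8.72 with shERK5-5 against 10.61, 10.75 and 11.21 with shNSC in CHLA-90, and 10.40, 10.50 and 10.91 against 10.44, 10.77 and 10.66 in SK-N-BE(2). CHGB, a granin of secretory granules, had 10.44, 10.71 and 10.62 against 11.85, 12.13 and 11.94 in CHLA-90, and 12.07, 12.08 and 12.84 against 11.93, 11.86 and 12.16 in SK-N-BE(2). Both lay apart from their controls in CHLA-90 and overlapped them in SK-N-BE(2), with line differences of -2.01 ± 0.26 (adjusted p = 8.31e-05) and -1.73 ± 0.28 (adjusted p = 0.000917). CHGA fell by 1.07 in CHLA-90, with a line difference of -1.30 ± 0.28 (adjusted p = 0.00914), and HAND1 was the remaining one. These 4 calls were kept in each of the 12 fits that left out 1 array. SLC6A2, the noradrenaline transporter, fell by 1.09 in CHLA-90 and 0.86 in SK-N-BE(2), and GATA3 rose by 0.60 in SK-N-BE(2).

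Of 23 neuronal differentiation genes, 4 line differences were lower and 0 higher, against 2.99% and 2.4% of all probes. The members did not share a direction within a line, where 7 rose and 3 fell in each. The shares of all probes that rose and fell were 5.85% and 6.84% in CHLA-90 and 6.76% and 6.07% in SK-N-BE(2). DCX, a microtubule protein of young neurons, rose by 1.12 in CHLA-90 and by 2.39 in SK-N-BE(2), and NEFM, a neurofilament subunit, rose by 0.66 and 2.01, whereas NEFL fell in both. SYP, a synaptic vesicle protein, fell by 0.93 in CHLA-90, and its call was lost in 5 of the 12 fits that left out 1 array. ELAVL3, a neuronal RNA-binding protein, rose by 2.28 in CHLA-90 and 2.19 in SK-N-BE(2), with a line difference of 0.09 (adjusted p = 0.908).

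Of 16 smooth muscle and contractile genes, 10 fell in CHLA-90 and 7 in SK-N-BE(2), with 0 rising in either, against 6.84% and 6.07% of all probes that fell. Of the 16, 3 line differences were lower and 0 higher, against 2.99% and 2.4%. Besides ACTA2, these were VCL, vinculin, which fell by 1.44 in CHLA-90 (line difference -1.13, adjusted p = 0.0146), and ACTG2, an enteric actin, which fell by 1.46 (line difference -1.29, adjusted p = 0.0466). The ACTG2 call was lost in 9 of the 12 fits that left out 1 array. SYNPO and TPM1 fell by nearly equal amounts in both lines, by 1.46 each for SYNPO and by 0.94 and 0.96 for TPM1.

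The matrix and TGF-beta genes were split. Of 26 measured, 3 line differences were higher and 5 lower, against 2.4% and 2.99% of all probes, with a median of -0.05. DCN, the proteoglycan decorin, had 12.40, 12.48 and 12.27 with shERK5-5 against 12.11, 12.09 and 12.23 with shNSC in CHLA-90, and 13.32, 13.25 and 13.29 against 11.10, 10.97 and 11.16 in SK-N-BE(2). SPARC, a collagen-binding matrix protein, had 10.26, 10.42 and 10.81 against 12.35, 12.33 and 12.20 in CHLA-90, and 13.79, 13.71 and 13.83 against 13.69, 13.86 and 13.92 in SK-N-BE(2). DCN rose in SK-N-BE(2) and SPARC fell in CHLA-90, and both line differences were lower (-1.97 ± 0.21 and -1.75 ± 0.22). FN1, fibronectin, fell by 1.03 in SK-N-BE(2) and had a line difference of 1.52 ± 0.28 (adjusted p = 0.00245). DCN is also a fibroblast marker. Of the 5 fibroblast markers measured, 1 rose in CHLA-90 and 3 rose in SK-N-BE(2), against 5.85% and 6.76% of all probes. The part of that movement in the matrix results was not tested.

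Of 24 BMP pathway genes, 3 line differences were lower and 1 higher, against 2.99% and 2.4% of all probes. ID3, a target of BMP receptors, had 12.57, 12.73 and 12.96 with shERK5-5 against 12.73, 12.42 and 12.83 with shNSC in CHLA-90, and 10.96, 11.10 and 11.09 against 9.35, 9.26 and 9.18 in SK-N-BE(2) (line difference -1.69 ± 0.26, adjusted p = 0.000613). The ligand gene BMP4 rose by 1.03 in SK-N-BE(2), at low signal in both lines, MSX2, a homeobox target, fell by 1.77 in CHLA-90, and the receptor gene BMPR1B rose by 0.94 in CHLA-90. The call of BMP4 was lost in 9 and that of BMPR1B in 12 of the 12 fits that left out 1 array.

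In the cell cycle groups, 12 of 37 G2/M genes rose in SK-N-BE(2) and 1 fell, against 6.76% and 6.07% of all probes. In CHLA-90 3 rose and 4 fell, against 5.85% and 6.84%. Of the 37, 3 line differences were lower and 0 higher, against 2.99% and 2.4% of all probes, with a median of -0.34. KIF2C, a microtubule-depolymerizing kinesin, and BIRC5, survivin, rose by 1.64 and 1.75 in SK-N-BE(2), with line differences of -1.21 ± 0.28 (adjusted p = 0.0123) and -1.36 ± 0.33 (adjusted p = 0.017). KIF20A had a line difference of -1.18, and its call was lost in 7 of the 12 fits that left out 1 array, that of BIRC5 in 1 (without SK-N-BE(2) shNSC replicate 2, adjusted p = 0.0592) and that of KIF2C in 0. Of 44 genes of G1/S and DNA replication, 1 line difference was lower and 0 higher, near the 2.99% and 2.4% of all probes: TK1, thymidine kinase, had -1.02 (adjusted p = 0.0475), lost in 10 of those fits. CDC6, a replication licensing factor, fell by 1.56 in CHLA-90 and 1.57 in SK-N-BE(2). Of 33 histone genes, 11 fell in CHLA-90 and 12 in SK-N-BE(2), against 6.84% and 6.07% of all probes, and 2 line differences were higher, against 2.4% (H1-2 and H2AC6, lost in 9 and 8 of the fits).

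Among 15 genes of the ERK5 cascade with MEF2 and KLF factors, 1 line difference was lower and 1 higher, against 2.99% and 2.4% of all probes. SGK1, a kinase gene that ERK5 signalling can regulate, had 10.76, 11.44 and 11.48 with shERK5-5 against 10.50, 10.35 and 10.54 with shNSC in CHLA-90, and 13.04, 13.08 and 12.94 against 11.12, 11.17 and 10.85 in SK-N-BE(2). It rose in both lines, by 0.76 and 1.97, with a line difference of -1.21 ± 0.26 (adjusted p = 0.00817). MEF2A fell by 1.04 in SK-N-BE(2), with a line difference of 1.00 ± 0.27 (adjusted p = 0.0335) that was lost in 7 of the 12 fits that left out 1 array. MAP2K5 rose by 0.77 in SK-N-BE(2), and MEF2D rose by 0.77 in CHLA-90 and 0.67 in SK-N-BE(2). Of 26 genes of MAPK output and feedback, 2 line differences were higher and 0 lower, against 2.4% and 2.99% of all probes. IER3, an immediate early gene, rose by 0.60 in CHLA-90 and fell by 0.64 in SK-N-BE(2). EGR1, an early growth response factor, rose by 1.06 in CHLA-90, and its call was lost in 7 of those fits.

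Several single genes of receptor and metabolic lists also differed. ALK, a receptor kinase gene mutated in some neuroblastomas, had 9.56, 9.03 and 9.38 with shERK5-5 against 9.58, 9.35 and 9.72 with shNSC in CHLA-90, and 7.61, 7.05 and 7.89 against 6.00, 6.64 and 6.10 in SK-N-BE(2). It rose by 1.27 in SK-N-BE(2), with a line difference of -1.50 ± 0.40 (adjusted p = 0.0287) lost in 7 of the 12 fits that left out 1 array. SLC2A1, the glucose transporter GLUT1, had 9.53, 9.60 and 10.24 against 10.93, 10.90 and 11.44 in CHLA-90, and 9.54, 9.27 and 9.40 against 9.30, 8.70 and 9.04 in SK-N-BE(2) (line difference -1.69 ± 0.30, adjusted p = 0.00171). HES1, a target of Notch receptors, fell by 1.07 in CHLA-90, with a line difference of -1.53 ± 0.31 (adjusted p = 0.00525). MDM2, the p53 antagonist and p53 target, rose by 1.01 in CHLA-90 and 2.04 in SK-N-BE(2), with a line difference lost in 2 of those fits. In the semaphorin list, NRP1, a semaphorin 3A receptor, fell by 0.69 in CHLA-90 and 1.70 in SK-N-BE(2), in the same direction of line difference as SEMA3A. Of 17 measured genes of that list, 3 line differences were higher and 1 lower, against 2.4% and 2.99% of all probes. The lower one was the plexin gene PLXND1, and its call was lost in 10 of the 12 fits that left out 1 array. Among ion channels, the sodium channel gene SCN3A fell by 1.45 in SK-N-BE(2), and the potassium channel gene KCNJ8 fell by 0.51 in CHLA-90 and rose by 0.90 in SK-N-BE(2). The sterol synthesis genes HMGCS1 and SQLE fell in SK-N-BE(2), by 1.08 and 1.58, and the calls of their line differences were lost in 3 and 8 of the 12 fits that left out 1 array. Of 29 measured genes of the sterol list, 2 line differences were higher and 1 lower, against 2.4% and 2.99% of all probes, with a median of 0. The lower one, ACSS2, fell by 0.79 in CHLA-90 (line difference -1.22 ± 0.28, adjusted p = 0.0139), and its call was kept in all 12 fits.

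Whether the line difference differed between shERK5-5 and shERK5-4 was tested as the difference between the line differences of the hairpins, in which the shNSC arrays cancel. A call can come from either hairpin. B4GALT6 and SEMA3A passed it with line differences of 2.71 and 2.04 under shERK5-5 and larger ones of 4.20 and 3.56 under shERK5-4. The difference between hairpins passed at 2896 probes, 13.5% of those tested, and 20.5% of the 2896 had a called shERK5-5 line difference. Of the 1156 probes with a shERK5-5 line difference, 593 (51.3%) were among them, and both tests use the shERK5-5 arrays. HGF, hepatocyte growth factor, had 10.79, 10.97 and 11.21 with shERK5-5, 5.63, 6.00 and 6.02 with shERK5-4 and 9.12, 8.95 and 8.73 with shNSC in SK-N-BE(2), so the hairpins moved it in opposite directions. Its line difference was -2.23 with shERK5-5 and 2.76 with shERK5-4, a difference of -4.99 ± 0.28 (adjusted p = 5.51e-10). MAGEC1, with a line difference of -3.69 under shERK5-5, had 11.49, 11.41 and 11.31 with shERK5-4 in CHLA-90 and a line difference of 0.59 (difference -4.28 ± 0.25, adjusted p = 5.51e-10). ITGB1 had 15.65, 15.45 and 15.06 with shERK5-4 in SK-N-BE(2), near its shNSC signal, and its line difference of 2.35 with shERK5-5 stood beside -0.29 with shERK5-4 (difference 2.64 ± 0.23, adjusted p = 1.34e-07). MYCN had 6.71, 6.93 and 7.10 with shERK5-4 in CHLA-90 and 14.84, 15.25 and 15.24 in SK-N-BE(2), lower than with shNSC in both, and its line difference was 0.14 with that hairpin (difference 1.64 ± 0.24, adjusted p = 9.31e-05).

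For other genes the difference between the hairpins did not pass the test. CHAC1 had -2.56 with shERK5-5 and -2.10 with shERK5-4 (difference -0.46 ± 0.30, adjusted p = 0.351), and TYRP1 had -3.53 and -2.89 (difference -0.64 ± 0.31, adjusted p = 0.188). KCNH8 had 1.89 and 1.85, ITGB5 -2.55 and -2.15 and GPR85 2.13 and 1.73, and none of these 3 differences passed (adjusted p = 0.921, 0.379 and 0.283). Like line differences can hold unlike changes within the lines. ITGB5 changed by -1.57 in CHLA-90 and 0.98 in SK-N-BE(2) with shERK5-5, and by 0.17 and 2.32 with shERK5-4. KCNH8 changed by 0.97 and -0.92 with shERK5-5, and by 0.28 and -1.57 with shERK5-4. GPR85 changed by 1.51 and -0.62, and by 1.95 and 0.21. A p that misses the threshold does not show that the hairpins acted alike, and both sets of values rest on the same shNSC arrays. The ER list had a median line difference of -0.58 with shERK5-5 and 0.08 with shERK5-4, and the synthetases -0.56 and 0.01, while the ATF4 list had -0.51 and -0.34. The adrenergic list had -0.37 and -0.77. Of its 20 measured genes, 4 line differences were lower with shERK5-5, against 2.99% of all probes. With shERK5-4 9 were lower and 0 higher, against 715 and 835 of all 21448 probes. Among the named genes with a positive difference was DLX5, a homeobox gene (5.69 ± 0.52, adjusted p = 2.66e-07), whose shERK5-5 line difference of 1.49 did not pass. DLX5 had 13.20, 14.16 and 14.06 with shERK5-5, 6.89, 7.06 and 7.59 with shERK5-4 and 11.17, 11.30 and 11.51 with shNSC in CHLA-90. DBH, dopamine beta-hydroxylase, and ADCYAP1R1, the PACAP receptor, had shERK5-5 line differences of -0.48 and 0.12 and shERK5-4 line differences of -4.20 and -3.90.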

How the data were processed

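Total RNA from 18 cultures was measured on whole-transcript arrays, 1 array per culture. The deposited values are the authors' processed log2 signals, 1 per probe set. That they are log2 was taken from their range, and no source used here gives the summarisation, the normalization, the software or the build. They were used as deposited, without a filter. Array signals have no read depth, so 3 arrays per group limit the precision. Groups came from the labels. Gene symbols came from the platform annotation, and 3739 of 21448 probes had none.

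One limma model (limma 3.58.1, R 4.3.3) with 6 group means was fitted over 18 arrays, with 12 residual degrees of freedom. The line difference, the change in each line and the difference between hairpins were contrasts of it, with Benjamini-Hochberg adjustment over all probes and a threshold of 0.05. The code was tested on simulated data. P-values measure the spread between the cultures.

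The subject, the 37 gene lists and the tests were chosen with earlier results of these data known. Named genes were MAPK7, the 12 most extreme calls in each direction, up to 8 opposite calls in each orientation, 4 same-direction calls each way, up to 4 of each list by smallest p, and 4 in each direction of the hairpin difference. The brightest probe stood for a gene. Other genes were named after their values were seen. Alternatives covered normalization, filters, arrays left out, weights and a replicate block.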

Additional observations from a re-analysis of the deposited data

Results flagged for a closer look

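A response that differed between the lines by the test of the difference itself was found at 1156 probes, and a line difference that differed between the hairpins at 2896 probes. For the named genes the size is given here as the ratio of the fold changes of the 2 lines.

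Where CHLA-90 had the higher change, the ratio was 6.56 for B4GALT6, 5.13 for ANKRD1, 5.11 for ITGB1, 4.12 for SEMA3A, 4.02 for CDK6, 3.95 for SLCO4C1, 3.78 for GYG2, 3.67 for PTPRK and 3.62 for IL4R. ANKRD1 and GYG2 had CHLA-90 signals, and SLCO4C1 a SK-N-BE(2) shNSC signal, in the lowest 25% of the line, so these 3 ratios rest on a low signal. Some of the genes that follow lay near that bound in at least 1 group of 1 line. MAGEC1 averaged 3.65 with shERK5-5 and 3.94 with shNSC in SK-N-BE(2) (bound 3.61). TYRP1 averaged 4.45 and 4.26 in CHLA-90 (bound 4.15). In the same line CAPN6 averaged 4.49 with shERK5-5 and 5.02 with shNSC, and PLCE1, whose ratio is given further below, 4.19 and 4.99. Where CHLA-90 had the lower change, the ratio was 12.9 for MAGEC1, 11.6 for TYRP1, 8.13 for CAPN6, 7.45 for KDELR3, 6.06 for MT1E, 5.91 for CHAC1, 5.86 for MT1L, 5.74 for HAND1, 5.64 for IFI6, 5.62 for FILIP1L and 5.45 for PYCR1.

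Among genes that rose in CHLA-90 and fell in SK-N-BE(2), the ratio was 4.39 for GPR85, 4.07 for PGAP1, 3.71 for KCNH8, 3.42 for MYCN, 3.41 for SGIP1, 3.26 for NAIP, 3.21 for CCNG2 and 3.2 for GARNL3. Among genes that fell in CHLA-90 and rose in SK-N-BE(2), it was 5.86 for ITGB5, 4.88 for JAGN1, 4.64 for PLCE1, 3.94 for GSTT2, 3.79 for FEV, 3.73 for ZNF394, 3.67 for GGA1 and 3.42 for AGTRAP.

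Among genes that moved in the same direction by unequal amounts, the ratio was 4.21 for SPTSSB, 3.26 for MFAP4, 3.07 for GUCY1B1, 3.49 for ACTA2 and 3.36 for NEFL, where CHLA-90 had the lower change. It was 3.03 for LPGAT1 and 2.83 for TGFBR1, where CHLA-90 had the higher change.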

How the results depend on the processing

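Leaving out 1 array at a time gave 643 to 1401 called line differences (304 to 618 higher, 331 to 783 lower, 36 to 100 in opposite directions), against 1156 in the full set. Counts more than 1.5 times smaller came without SK-N-BE(2) shNSC replicate 2 (643), CHLA-90 shNSC replicate 3 (651) and SK-N-BE(2) shERK5-5 replicate 3 (674). The same fits called 1720 to 2822 changes in CHLA-90, 2036 to 3026 in SK-N-BE(2) and 2154 to 3054 differences between hairpins, and MAPK7 had line differences of -0.55 to -0.19. At a threshold of 0.01 there were 382 calls (178 higher, 204 lower, 17 opposite), 1335 in CHLA-90, 1733 in SK-N-BE(2) and 1407 between hairpins. Same-numbered arrays correlated at 0.0362 to 0.204 in their deviations, and arrays with different numbers at -0.194 to 0.102. Arrays were not taken as pairs in the main fit. A replicate block within lines gave 1349 calls and a block over both lines 1400, of which 109 were opposite. Quantile normalization gave 1040 calls (512 higher, 528 lower) and scaling 1322 (482 higher, 840 lower). Cyclic loess, chosen after seeing the data, gave 1110. ADCYAP1R1, not called, turned to -0.07 with array weights and ranged from -0.11 (without CHLA-90 shERK5-5 replicate 1) to 0.38 over the arrays left out, and the cause was not tested. Of 117 genes run singly, each under the 24 to 26 settings that kept its probe, 73 kept their direction and side of the threshold in each, 40 lost their call in at least 1, and DLX5, MT1IP and MT1M, not called, gained one in 4, 7 and 2.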

Other observations

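Gene families outside the lists were looked at after their values were seen. Of 74 measured mitochondrial ribosomal proteins, subunits of the ribosome that translates mitochondrial messages, 9 had a lower line difference and 0 a higher one, against 2.99% and 2.4% of all probes. Their median was -0.36, and 60 of 74 lay below 0, against 46.2% of all probes. In CHLA-90 21 fell and 3 rose, against 6.84% and 5.85% of all probes, and in SK-N-BE(2) 5 fell and 6 rose, against 6.07% and 6.76%. MRPS11 had the line difference -1.95 ± 0.49, MRPL43 -1.41 and MRPL28 -1.28. In CHLA-90 MRPS11 had 6.59, 8.58 and 8.53 with shERK5-5 against 9.42, 8.87 and 9.11 with shNSC, so its first array lay well below the others. Genes of this family were not run singly with arrays left out. MRPS2 fell by 0.51 in CHLA-90 and rose by 0.58 in SK-N-BE(2). After quantile normalization the median was -0.29 with 9 lower calls.

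Of 44 measured genes of the MAGE, GAGE, PAGE and XAGE families, mostly cancer-testis antigens, 6 had a lower line difference and 0 a higher one, against 2.99% and 2.4% of all probes, with a median of -0.10. Besides MAGEC1 they were MAGED2 (-1.38), MAGEA9 (-1.37), MAGED1 (-1.22), MAGED4B (-1.17) and MAGEA10 (-1.05). In SK-N-BE(2) MAGEA9 averaged 2.90 with both hairpins and MAGEA10 2.67 with shERK5-5 and 2.69 with shNSC, in the lowest 25% of that line, where a fall could not show. Of 29 protocadherins, adhesion proteins of neurons, 4 were higher and 1 lower, against 2.4% and 2.99% of all probes, with a median of 0.36. The higher ones were PCDHB9 (1.70), PCDHB13 (1.25), PCDHB3 (1.25) and PCDHB12 (1.07), which share sequence, and PCDH17 was lower (-1.04). After quantile normalization 4 of the MAGE group were lower. Of 492 zinc finger genes 7 were higher and 8 lower, against 2.4% and 2.99% of all probes, with a median of 0.06, beside 0.04 over all probes.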
